A study of Mus musculus with 12 samples.

Results

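The subunits of the oxidative phosphorylation system that are encoded in the nucleus were followed across all the libraries. A gene was taken as a subunit when its symbol began with Nduf and a subunit letter and number (complex I), was Sdha, Sdhb, Sdhc or Sdhd (complex II), or began with Uqcr (complex III), Cox4 to Cox8 (complex IV) or Atp5 (complex V). This gave 82 of the 18514 genes in the count table, with 37 in complex I, 4 in complex II, 8 in complex III, 16 in complex IV and 17 in complex V, and all 82 were among the 15484 genes that passed the filter on low counts. The rule used gene symbols only, but this family was chosen with earlier results of these data known. RNA sequencing was done on colorectal tissue of 12 male C57BL/6 mice bought at 4 weeks of age, with 3 mice in each of 4 groups and 1 library per mouse. Ctrl mice drank ordinary water and received no carcinogen. Model mice were injected once with azoxymethane (AOM, a carcinogen that acts in the colon), 10 mg/kg into the peritoneum. Dextran sulfate sodium (DSS), which injures the colonic epithelium, followed in their drinking water at 2% for 3 cycles, a scheme that produces colitis-associated tumours. Ctrl_Swim and Model_Swim mice swam for up to 90 min a day, without and with AOM/DSS, and mice that did not swim were placed in shallow water. By the methods, training began before the experiment and lasted to its end. The labels of the Model_Swim mice name a swimming pretreatment. The samples were pieces of whole colorectal tissue, so that fewer cells of a type and less RNA per cell cannot be told apart.

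Oxidative phosphorylation takes place in the inner mitochondrial membrane. Complex I accepts electrons from NADH and complex II from succinate, complex III passes them from ubiquinol to cytochrome c, complex IV passes them to oxygen, and complex V (ATP synthase) uses the resulting proton gradient to make ATP. Most subunits are encoded by nuclear genes on many chromosomes and must be made in matching amounts, and the absorptive cells of the colon are known to rely on mitochondrial oxidation of butyrate. The subunits encoded in the mitochondrial genome were not analysed here. Several subunits have near-identical processed copies elsewhere in the genome, and how reads shared with such copies were counted is not given in the sources used here, so that levels of single genes carry this uncertainty.

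The 82 genes lie on 19 chromosomes. The factors NRF1, GABP (an ETS family member), YY1 and the estrogen-related receptors (ERR) are known to act on promoters of respiratory genes, and promoter windows from RefSeq (GRCm38.p6), from 250 bases before to 50 bases after a gene's start, were at hand for 68 of the 82 genes. On both strands, the NRF1 core CGCATGCG was found for 9 of 68 genes (13.2%, against 3.77% of the 11771 tested genes with a window), the ETS core CCGGAAG for 16 (23.5% against 17.14%), the YY1 core AAGATGGCG for 8 (11.8% against 2.99%) and the ERR core AAGGTCA for 8 (11.8% against 4.17%). At least 1 of these 4 letter strings was present for 31 of the 68 genes, or 45.6%, against 25.58% of the tested genes. A match describes letters in a window and not a bound site. Windows of 4 genes are shown from 250 bases before to 30 bases after the start, 5′ to 3′, with matches in capitals. Atp5k, Uqcr11 and Cox6a1, a subunit each of complexes V, III and IV, are shown as examples of the genes that hold both the NRF1 and the ETS core (Atp5j and Atp5l, of complex V, also do), and Cox7a1 because its transcript had the largest called decrease in the tumour model.
Atp5k (chr5:108434370-108434649, minus strand): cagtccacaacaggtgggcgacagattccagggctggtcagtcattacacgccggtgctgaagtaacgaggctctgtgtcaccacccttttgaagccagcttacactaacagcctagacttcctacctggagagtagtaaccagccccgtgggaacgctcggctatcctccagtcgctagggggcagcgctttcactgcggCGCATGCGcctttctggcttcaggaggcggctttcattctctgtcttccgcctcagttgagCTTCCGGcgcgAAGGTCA
Uqcr11 (chr10:80406792-80407071, minus strand): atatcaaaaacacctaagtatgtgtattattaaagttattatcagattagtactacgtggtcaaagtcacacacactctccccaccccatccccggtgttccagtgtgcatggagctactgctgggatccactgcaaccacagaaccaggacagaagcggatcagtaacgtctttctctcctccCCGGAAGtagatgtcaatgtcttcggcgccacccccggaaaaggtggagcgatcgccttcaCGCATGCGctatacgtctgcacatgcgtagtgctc
Cox6a1 (chr5:115348929-115349208, minus strand): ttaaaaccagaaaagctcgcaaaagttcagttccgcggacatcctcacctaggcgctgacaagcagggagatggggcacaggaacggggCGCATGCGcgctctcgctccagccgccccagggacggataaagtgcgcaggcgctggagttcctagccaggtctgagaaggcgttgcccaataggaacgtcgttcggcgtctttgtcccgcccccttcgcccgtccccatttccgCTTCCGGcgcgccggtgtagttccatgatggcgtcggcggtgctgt
Cox7a1 (chr7:30183921-30184200, plus strand): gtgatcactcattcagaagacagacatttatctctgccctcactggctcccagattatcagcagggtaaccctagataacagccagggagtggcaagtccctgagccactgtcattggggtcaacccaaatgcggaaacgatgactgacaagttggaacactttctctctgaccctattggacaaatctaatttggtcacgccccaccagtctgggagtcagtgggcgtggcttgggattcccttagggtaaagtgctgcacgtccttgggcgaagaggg
In Atp5k the NRF1 core spans bases -49 to -42 from the start, the ETS core 13 to 19 and the ERR core 24 to 30. In Uqcr11 the NRF1 core runs across the start, from -5 to 3, and the ETS core lies at -66 to -60. In Cox6a1 these lie at -161 to -154 and at -16 to -10. The window of Cox7a1 held none of the 4 strings.

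Before the comparisons, the libraries were checked for depth and for RNA of other tissues. Total counts per library were between 17256953 and 19451055, and levels are given as CPM, a gene's reads as a share of the library total after scaling by trimmed mean of M values (TMM). Epithelial and smooth muscle markers were high in every library, with summed levels of 8763 to 13268 CPM for 7 epithelial genes and of 6640 to 10240 CPM for 9 smooth muscle genes. Genes of pancreatic acinar cells (17 genes) reached a sum of 51198 CPM in Model 1 and of 24970.2 CPM in Model 3, and lay between 93.5 and 213 CPM in the other 10 libraries. A trace of pancreatic RNA was also read as the sum over Pnlip, Cela2a, Cpa1, Ctrb1 and Cel. Among those 10 libraries it was 18.6 to 31.8 CPM in Ctrl 1 to 3, Ctrl_Swim 3 and Model 2. In Ctrl_Swim 2 and 4 and Model_Swim 1 to 3 it was 0.598 to 1.65 CPM. Genes of squamous epithelium (12 genes) reached 589.6 and 1494 CPM in Model 1 and Model 2, 986 and 1068 CPM in Model_Swim 2 and Model_Swim 3, and 444 CPM in Ctrl_Swim 4, and were at most 117 CPM in the other 7 libraries. Results were therefore also computed without Model 1 and Model 3, and without the 5 libraries rich in squamous transcripts.

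The first question was how the tumour model differed from control tissue. In Model mice, 75 of 82 subunit genes were lower than in Ctrl mice and 1, Ndufa4l2, was higher (adjusted p under 0.05, edgeR quasi-likelihood test with Benjamini-Hochberg adjustment over all tested genes), whereas 16.2% of all tested genes were called lower and 16.5% higher. The fall covered 36 of 37 genes of complex I, 4 of 4 of complex II, 8 of 8 of complex III, 12 of 16 of complex IV and 15 of 17 of complex V. The median fold change over the 82 genes was 0.666, or -0.59 on the log2 scale, and the median of all tested genes was 0.01. None of the decreases reached a fold change under 0.5, a size that 1.22% of tested genes reached with an adjusted p under 0.05. Of the called subunits Ndufa4l2 alone exceeded a fold change of 2, as 6.21% of tested genes did with an adjusted p under 0.05. In 75 genes every Model library lay below every Ctrl library, and 23.2% of tested genes showed this separation.

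**Figure D1:**
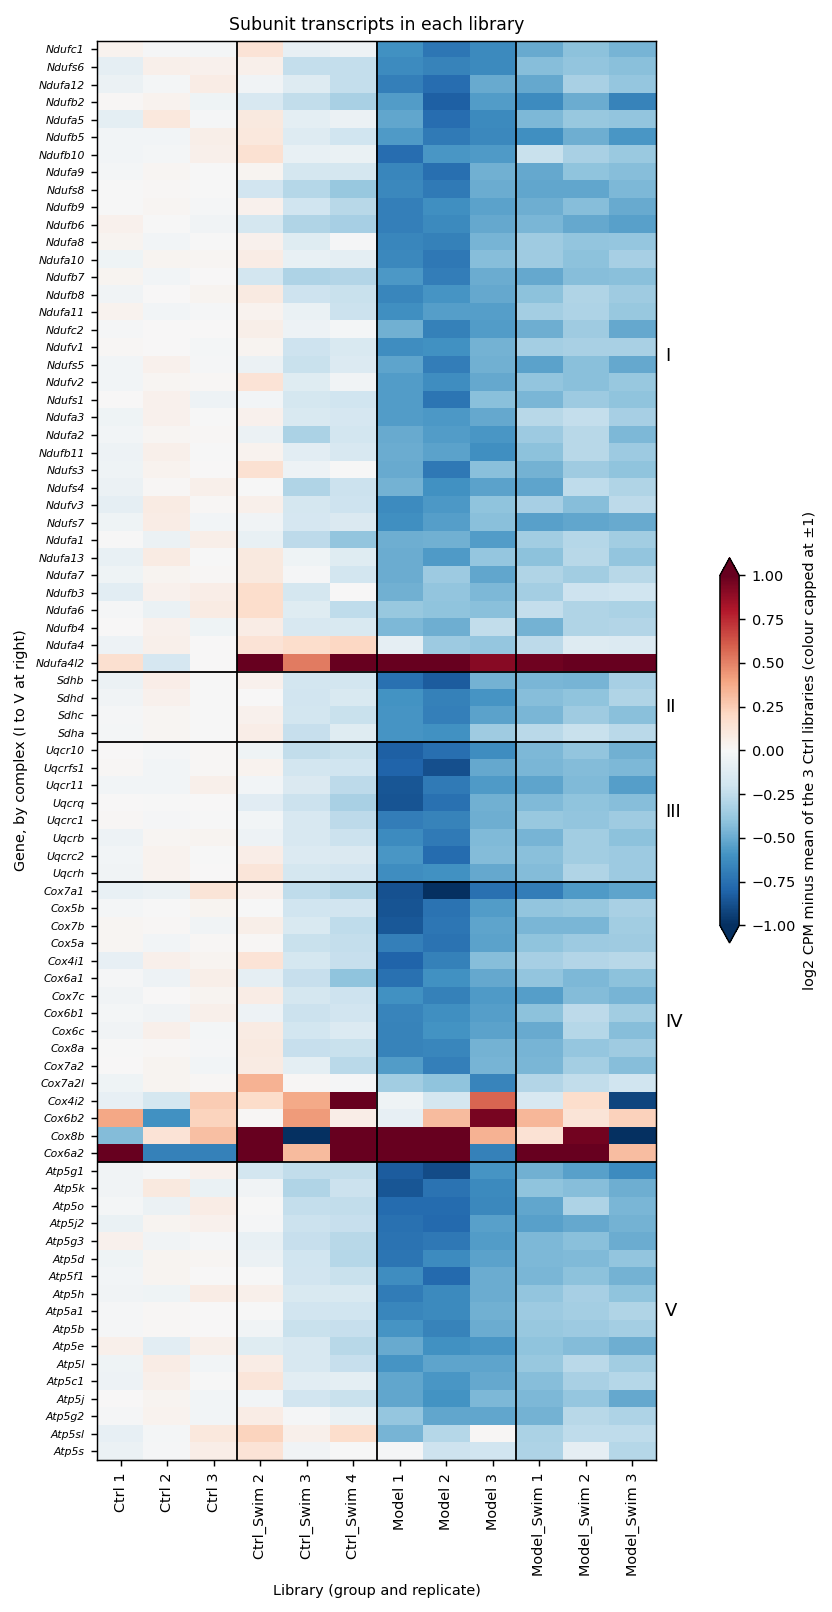
Heat map of 81 of the 82 subunit genes (rows, grouped by complex I to V and ordered by fold change in Model vs Ctrl) in the 12 libraries (columns, grouped as Ctrl, Ctrl_Swim, Model and Model_Swim). Colour is log2 CPM minus the mean of the 3 Ctrl libraries, blue lower and red higher, with the scale capped at 1 in each direction. Blue runs through nearly all rows of the Model libraries and, more weakly, of the Model_Swim libraries, and the red rows are isoforms of low abundance such as Ndufa4l2, Cox6a2 and Cox8b.

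In complex I, Ndufv1, the core subunit that binds NADH, measured 217, 216 and 212 CPM in Ctrl 1 to 3, and 140.2, 142 and 155 CPM in Model 1 to 3. All Model values were below all Ctrl values, with a log2 fold change of -0.56 ± 0.07 (SE, adjusted p = 0.00056, edgeR). The other core subunits named here carry iron-sulfur clusters or form part of the peripheral arm. Of these, Ndufs1 fell by 0.56, Ndufs3 by 0.54, Ndufs7 by 0.53, Ndufs8 by 0.61 and Ndufv2 by 0.56 on the log2 scale. The membrane-arm subunit Ndufc1 had the largest decrease of complex I, at -0.66. The smallest called decrease of all subunits was that of Ndufa4, at -0.27 (adjusted p = 0.024, edgeR). Ndufa4 is grouped with complex I by its symbol, and its protein is known to associate with complex IV. Its call was lost under 16 of 24 alternative settings, and its log2 fold change lay between -0.40 and -0.16 over all 24.

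Complex II is the succinate dehydrogenase of the tricarboxylic acid cycle, made of a flavoprotein (Sdha), an iron-sulfur protein (Sdhb) and a pair of membrane anchors (Sdhc and Sdhd). Sdhb measured 211, 229.8 and 219 CPM in Ctrl 1 to 3 and 131, 124 and 159 CPM in Model 1 to 3. The groups did not overlap, and Sdhb fell by 0.67 ± 0.10 on the log2 scale (SE, adjusted p = 0.0011, edgeR). Sdha fell by 0.51, Sdhc by 0.60 and Sdhd by 0.62 on the same scale.

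In complex III, Uqcrfs1, the Rieske iron-sulfur protein, measured 314, 306 and 314 CPM in Ctrl 1 to 3 and 179, 169 and 218 CPM in Model 1 to 3. Its log2 fold change was -0.72 ± 0.10 (SE, adjusted p = 0.00069, edgeR), with no overlap between the groups. The small subunit Uqcr10 fell by 0.73, which had the smallest adjusted p of the 82 genes (0.00032, edgeR). The core proteins Uqcrc1 and Uqcrc2 fell by 0.61 and 0.59, and Uqcrb, Uqcrq, Uqcrh and Uqcr11 by between 0.58 and 0.70. The median over complex III was -0.65, against -0.56 for complex I, -0.61 for complex II, -0.60 for complex IV and -0.59 for complex V, and differences between complexes were not tested.

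In complex IV, the ubiquitous subunit Cox4i1 was the most abundant and measured 746, 819 and 802 CPM in Ctrl 1 to 3 and 452, 494 and 588 CPM in Model 1 to 3. It fell by 0.63 ± 0.11 on the log2 scale (SE, adjusted p = 0.0027, edgeR). Cox5b, which lies on the matrix side of the complex, fell by 0.71, Cox5a by 0.65, Cox6a1 by 0.62, Cox6b1 by 0.61, Cox7b by 0.69, Cox7a2 by 0.57 and Cox8a by 0.59. Cox7a2l, which takes part in joining respiratory complexes into supercomplexes, fell by 0.47. Cox7a1 (chr7:30184171-30186030), the isoform of subunit 7a typical of heart and skeletal muscle, measured 16.8, 17.01 and 19.4 CPM in Ctrl 1 to 3 and 9.65, 8.28 and 10.5 CPM in Model 1 to 3. This was the largest called decrease of the 82 genes, at -0.90 ± 0.13 (log2, SE, adjusted p = 0.00098, edgeR).

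In complex V, Atp5b, the catalytic beta subunit, measured 2193, 2224 and 2209.7 CPM in Ctrl 1 to 3 and 1469, 1391 and 1567 CPM in Model 1 to 3. The decrease was 0.58 on the log2 scale with an SE of 0.07 (adjusted p = 0.0006, edgeR), and the libraries of the groups did not overlap. Atp5g1, Atp5g2 and Atp5g3 encode the same mature subunit c, the ring that turns with proton flow. Atp5g1 measured 163, 165 and 171 CPM in Ctrl 1 to 3 and 93.3, 89.7 and 111 CPM in Model 1 to 3, a log2 fold change of -0.77 ± 0.08 (SE, adjusted p = 0.00036, edgeR). Atp5g3 fell by 0.67 and Atp5g2 by 0.48 on this scale. Atp5k (subunit e, in the membrane part) fell by 0.75, Atp5o (part of the stalk that holds the catalytic head) by 0.73, Atp5d by 0.63, Atp5a1 by 0.59, Atp5e by 0.57 and Atp5c1 by 0.54.

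The fold changes of genes with and without a promoter match were set side by side, as a description. Among called decreases, the median log2 fold change was -0.59 for the 9 genes with the NRF1 core and -0.59 for the 55 without it, and -0.61 for the 16 genes with the ETS core and -0.59 for the 48 without it. For the YY1 core the medians were -0.63 over 7 genes and -0.59 over 57, and for the ERR core -0.59 over 8 and -0.59 over 56.

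**Figure D2:**
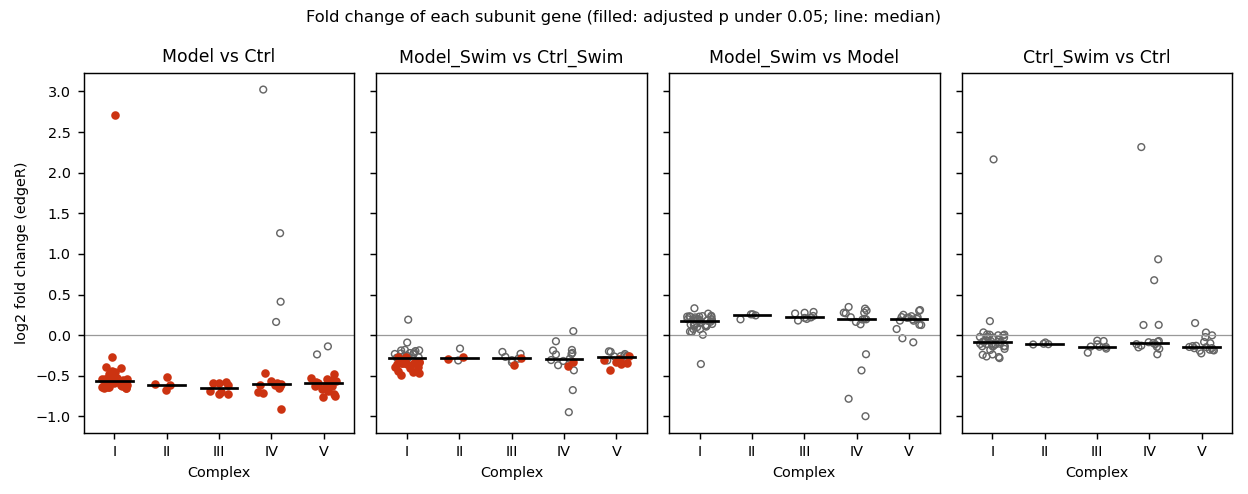
Log2 fold change (y axis, edgeR) of each of the 82 subunit genes by complex (x axis) in 4 comparisons, with 1 panel each. Filled points have an adjusted p under 0.05, open points do not, and the line is the median of the complex. In Model vs Ctrl the medians lie between -0.65 and -0.56, in Model_Swim vs Ctrl_Swim between -0.30 and -0.27, and in Model_Swim vs Model between 0.18 and 0.25 with no filled point.

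The 7 genes that were not lower in Model were all of low abundance. Levels of different genes were compared as FPKM, fragments scaled to transcript length and library size. The mean over all 12 libraries was 27.7 to 978 FPKM for the 75 lower genes and 0.524 to 16.7 FPKM for the other 7. By complex, the highest and lowest mean levels were 243 FPKM for Ndufb9 and 3.88 FPKM for Ndufa4l2 in complex I, 226 for Sdhd and 168 for Sdhb in complex II, 457 for Uqcrh and 108 for Uqcrq in complex III, 876 for Cox4i1 and 0.524 for Cox4i2 in complex IV, and 978 for Atp5b and 3.46 for Atp5s in complex V. Atp5s and Atp5sl, now named Dmac2l and Dmac2 in RefSeq, had log2 fold changes of -0.14 and -0.24 and did not pass the test (adjusted p = 0.38 and 0.11, edgeR). Dmac2 is named for assembly of the distal membrane arm of complex I, and both genes are counted with complex V here by their older symbols alone.

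Ndufa4l2 (chr10:127509274-127517154) is a relative of Ndufa4 known to be induced in hypoxia, and it measured 1.05, 0.818 and 0.935 CPM in Ctrl 1 to 3 and 5.90, 10.7 and 1.84 CPM in Model 1 to 3. In swum mice it measured 2.52, 1.38 and 8.69 CPM in Ctrl_Swim 2 to 4 and 1.93, 6.64 and 5.83 CPM in Model_Swim 1 to 3. Its log2 fold change in Model vs Ctrl was 2.71 ± 0.79 (SE, adjusted p = 0.024, edgeR), and the 5 libraries with over 5 CPM were the 5 with over 200 CPM of squamous transcripts. Without those 5 libraries its log2 fold change was 0.96 (adjusted p = 0.20, edgeR, with Model 3 as the lone Model library), and the part of squamous tissue in this result was otherwise not tested. Its call was also lost when any 1 of the Ctrl libraries or Model 2 was left out, with an adjusted p between 0.065 and 0.086 (edgeR).

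The remaining isoforms of complex IV are typical of striated muscle (Cox6a2 and Cox8b), lung (Cox4i2) or testis (Cox6b2). Cox6a2 had 6, 0 and 0 reads in Ctrl 1 to 3, 6, 2 and 25 in Ctrl_Swim 2 to 4, 19, 33 and 0 in Model 1 to 3 and 14, 14 and 2 in Model_Swim 1 to 3. Its Model and Ctrl libraries overlapped, and its log2 fold change of 3.02 in Model vs Ctrl did not pass the test (adjusted p = 0.14, edgeR). The 12 genes of skeletal or cardiac muscle summed to 425, 419 and 303 CPM in Ctrl_Swim 4, Model 2 and Model_Swim 2, to 150.3 to 194 CPM in Ctrl_Swim 2, Model 1 and Model_Swim 1, and to at most 86.2 CPM elsewhere, and the share of that tissue in the Cox6a2 values was not tested. Cox8b lay between 0.106 and 1.13 CPM, Cox4i2 between 0.477 and 2.35 CPM and Cox6b2 between 1.53 and 4.71 CPM over the 12 libraries, and none of them passed the test in any comparison.

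**Figure D3:**
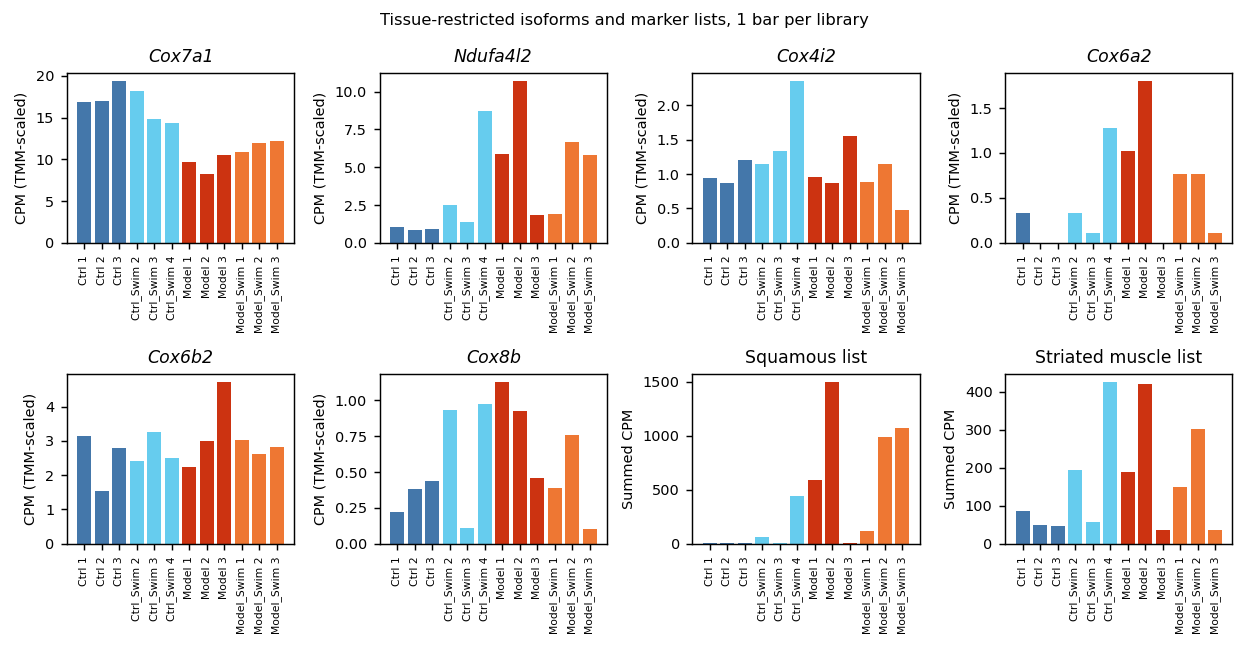
CPM (y axes, from 0) of 6 isoforms in each of the 12 libraries (x axis, 1 bar per library, dark blue Ctrl, light blue Ctrl_Swim, red Model, orange Model_Swim), with the summed CPM of 12 squamous and 12 striated muscle genes in the last panels. Cox7a1 lies between 8.28 and 10.5 CPM in the Model libraries against 16.8 to 19.4 in Ctrl, whereas Ndufa4l2 is above 5 CPM in the same 5 libraries that stand out in the squamous panel.

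The decrease of the other subunits was then set against the libraries in doubt. Without Model 1 and Model 3, the libraries with abundant pancreatic RNA, all 75 genes kept a negative sign. The median over the 82 genes was then -0.66 (edgeR, with Model 2 as the lone Model library, assumed to vary like the others). Model 2 itself held 1494 CPM of squamous transcripts. Without the 5 libraries rich in squamous transcripts, Model 3, with 24970.2 CPM of acinar genes, was the lone Model library. All 75 genes then kept a negative sign, and the median over the 82 genes was -0.52. No Model library was low in both kinds of RNA, so that no fit left out both. Scaled by library totals in place of TMM, the median of all tested genes moved to 0.12 and that of the 82 genes to -0.47, with 74 of the 75 still called. Markers of other cell types also differed between Model and Ctrl. Of 14 leukocyte genes 13 were higher, and of 9 fibroblast genes 8 were higher. Of 7 epithelial genes 5 were lower with a median log2 fold change of -0.33, and of 15 genes of mature colonocytes 5 were lower with a median of -0.49. The summed leukocyte level was 289 to 303 CPM in Ctrl, 286 to 469 in Ctrl_Swim, 733 to 759 in Model and 542 to 727 in Model_Swim. That of the colonocyte genes was 16804 to 18207, 15657 to 21095, 6383 to 14157 and 16541 to 18170.2 CPM in the same order. Car1 was a large part of this sum, at 6385 to 6821 CPM in Ctrl and 410, 277 and 4731 CPM in Model 1 to 3. Car4 and Aqp8 were higher in Model 2 (657 and 499 CPM) than in any Ctrl library, though no gene of the list was called higher in Model. The part of tissue composition in the subunit result was not tested.

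The next question was whether swimming altered subunit transcripts in the tumour model. No subunit gene was called in Model_Swim vs Model, against 0.0646% of all tested genes called higher and 0.00646% called lower (edgeR). The direction was nevertheless mostly upward, since the 82 genes had a median of 0.20 on the log2 scale and all tested genes one of -0.01. At an unadjusted p under 0.05, 50 of 82 genes were higher, against 6.66% of tested genes, and in 54 genes every Model_Swim library lay above every Model library, against 8.32%. The smallest adjusted p was that of Cox5b, at 0.15 (edgeR). Cox5b measured 180.5, 197 and 223 CPM in Model 1 to 3 and 249, 252 and 263 CPM in Model_Swim 1 to 3, a log2 fold change of 0.35 ± 0.08 (SE). For Atp5b the Model_Swim libraries measured 1697, 1722 and 1746 CPM, all above the Model values and below the Ctrl values given above, and the log2 fold change was 0.22 ± 0.07 (SE, adjusted p = 0.25, edgeR). Cox8b and Cox6a2 had the largest fold changes that were not called, at -0.998 and -0.78 on the log2 scale. DESeq2 called 13 of the 82 genes higher (361 genes called in all), and edgeR called 23 when Model 3 was left out (882 in all) and 6 when Model 1 and Model 3 were left out (569 in all). With a term for trace pancreatic RNA (summed CPM over 5) the median over the 82 genes was 0.10, with no subunit called. All Ctrl and Model libraries carried this trace and no Model_Swim library did. The term was thus fitted from Ctrl_Swim 3 against Ctrl_Swim 2 and 4, and it cannot separate the trace from swimming in AOM/DSS mice. Without the squamous-rich libraries the median was 0.08, with Model 3 and Model_Swim 1 as the lone libraries of their groups. No gene of the leukocyte or colonocyte lists was called with all 12 libraries. Their medians were -0.25 and 0.43 on the log2 scale.

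**Figure D4:**
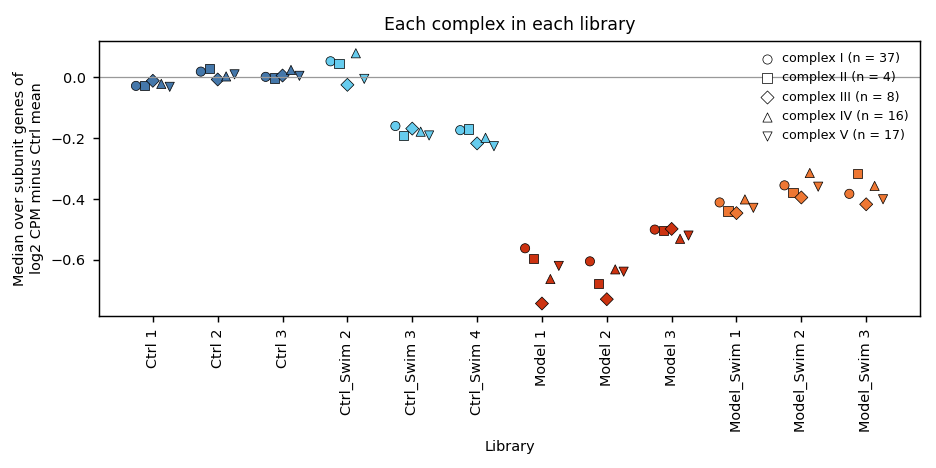
Median over the subunit genes of each complex (symbols) of log2 CPM minus the mean of the 3 Ctrl libraries (y axis) in each library (x axis; dark blue Ctrl, light blue Ctrl_Swim, red Model, orange Model_Swim). The Model medians lie between -0.74 and -0.50, the Model_Swim medians between -0.45 and -0.31, and Ctrl_Swim 2 lies near 0 while Ctrl_Swim 3 and 4 lie between -0.23 and -0.16 under the TMM scaling used.

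The order of the groups recurred across the subunits. The mean of Model_Swim lay between those of Ctrl and Model in 79 of 82 genes. All 3 Model libraries lay below all 9 others in 54 genes, and all 6 libraries from AOM/DSS mice lay below all 6 others in 69 genes. A Model library had the lowest value in 76 genes (Model 2 in 40, Model 1 in 29 and Model 3 in 7). The shares of all tested genes with these orders were not computed, so that these counts describe the subunits only. By single comparisons, 23.2% of tested genes lay lower without overlap in Model vs Ctrl and 16.5% in Model_Swim vs Ctrl_Swim. The transcripts of all 82 genes together made up 1.94% ± 0.02 of the TMM-scaled library in Ctrl, 1.79% ± 0.16 in Ctrl_Swim, 1.28% ± 0.08 in Model and 1.49% ± 0.03 in Model_Swim (mean ± SD, n = 3 each). Complex V contributed most to this share, with 0.778% in Ctrl and 0.513% in Model, and complex II least, with 0.145% and 0.0973%.

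In mice without AOM/DSS, no subunit was called between swum and unswum mice. Of all tested genes, 0.801% were lower and 0.168% higher in Ctrl_Swim vs Ctrl (edgeR), and at an unadjusted p under 0.05 there were 17 of 82 subunit genes, against 17.6% of tested genes. The median log2 fold change of the subunits was -0.11, but its sign depended on the scaling, since with library totals it was 0.02 while that of all tested genes was 0.13. The smallest adjusted p was that of Ndufs8, at 0.082 (edgeR). The 3 Ctrl_Swim libraries differed among themselves. For Cox4i1, Ctrl_Swim 2 measured 865 CPM, above all Ctrl libraries, and Ctrl_Swim 3 and 4 measured 698 and 673 CPM, below all of them. Ctrl_Swim 2 had the highest value of all 12 libraries in 36 of the 82 genes. Cox6a2 and Ndufa4l2 had the largest uncalled fold changes, at 2.31 and 2.16 on the log2 scale. DESeq2 called 1 subunit higher and 3 lower, of 658 genes it called in all.

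Among swum mice, the tumour model was again lower in subunit transcripts. In Model_Swim vs Ctrl_Swim, 32 of 82 genes were lower and none was higher, against 1.69% and 3.49% of all tested genes (edgeR), with 18 genes of complex I, 2 each of complexes II, III and IV, and 8 of complex V. The median log2 fold change was -0.28, and that of all tested genes -0.01. In 72 genes every Model_Swim library lay below every Ctrl_Swim library, against 16.5% of tested genes. The largest called decreases were of Ndufb5 (-0.50), Ndufc1 (-0.47), Ndufc2 (-0.45), Ndufs3 (-0.45), Atp5sl (-0.43) and Ndufs7 (-0.41). Of these 6, 5 belong to complex I, and Atp5sl (Dmac2) is counted with complex V by its symbol alone. Ndufb5, a membrane-arm subunit, measured 127, 108 and 103 CPM in Ctrl_Swim 2 to 4 and 76.8, 84.0 and 78.7 CPM in Model_Swim 1 to 3, which did not overlap (adjusted p = 0.0094, edgeR). Ndufc2, also of the membrane arm, measured 75.1, 69.7 and 71.1 CPM in Ctrl_Swim and 51.4, 56.3 and 50.6 CPM in Model_Swim, with the smallest adjusted p of the subunits (0.0063, edgeR). Cox4i2 and Cox8b had the largest uncalled fold changes, at -0.95 and -0.68.

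The number of genes called in this comparison depended on single libraries and on the tool, among other settings, while the median did not change sign. The number called over all genes, 802 with all libraries, moved in the same direction in the fits that follow. With Model 3 left out 50 subunits were called (1459 in all), and with any 1 Ctrl library left out 20 or 21 (499 to 504 in all). Leaving out Ctrl_Swim 2 gave 8 (285 in all) and Ctrl_Swim 3 gave 10 (226 in all). Leaving out Model_Swim 1, 2 or 3 gave 6, 8 or 5 (248, 187 and 170 in all). Medians lay between -0.33 and -0.23 over all fits with 1 library left out. DESeq2 called 61, of 1562 genes called in all. Without the squamous-rich libraries, with Model_Swim 1 as the lone Model_Swim library, the median over the subunits was -0.37.

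The effect of swimming with and without AOM/DSS was compared by the interaction term, the difference between the log2 fold changes of Model_Swim vs Model and Ctrl_Swim vs Ctrl. No subunit was called, nor was any of the tested genes by edgeR (0% called), while DESeq2 called 777 of them. The median interaction was 0.31 over the 82 genes and 0.00 over all tested genes. The smallest adjusted p was 0.115 (edgeR), a value shared by genes of complexes I, III, IV and V, Atp5g1 among them. At an unadjusted p under 0.05 there were 58 of 82 subunits, against 19% of tested genes. Cox6a2 and Ndufa4l2 had the largest uncalled values, at -3.10 and -2.52. DESeq2 called 22 subunits, and edgeR called 22 without Model 3 (716 genes in all), 9 without Ctrl_Swim 2 (195 in all) and 23 without Model 1 and Model 3 (917 in all), with the subunits all positive. The median interaction of the subunits was 0.14 without the squamous-rich libraries, with Model 3 and Model_Swim 1 as the lone libraries of their groups. Scaled by library totals it was 0.17, where the median of all tested genes was -0.14.

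Other genes of mitochondrial energy metabolism were examined in Model vs Ctrl. The share of all tested genes called was 16.2% lower and 16.5% higher, as above. All 16 genes of the tricarboxylic acid cycle were lower, with a median log2 fold change of -0.52, and Suclg2 (-0.68) and Suclg1 (-0.67), subunits of succinyl-CoA ligase, changed most. Of 46 assembly factors of the complexes, 32 were lower and none higher, with a median of -0.40, and the largest decreases were those of Cox10 (-0.67), which makes a heme precursor for complex IV, Taco1 (-0.65), a translational activator of a complex IV subunit, and Ndufaf4 (-0.60), an assembly factor of complex I. Of 17 genes for electron carriers, exchangers and uncoupling, 14 were lower and none higher, with a median of -0.47. These were led by Coq7 (-0.71), an enzyme of ubiquinone synthesis, Etfb (-0.70), part of the electron transfer flavoprotein of fatty acid oxidation, and Vdac3 (-0.63), a channel of the outer membrane. Cytochrome c (Cycs) fell by 0.61.

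Regulators and glycolytic genes were mixed in direction. Of 16 tested regulators of mitochondrial genes, 6 were lower and 1 higher, with a median of 0.03. Ppargc1a, a coactivator that drives mitochondrial biogenesis, measured 42.0, 48.8 and 47.7 CPM in Ctrl 1 to 3 and 27.7, 29.2 and 28.3 CPM in Model 1 to 3, a decrease of 0.70 on the log2 scale. Esrrg, a nuclear receptor of oxidative genes, fell by 0.97 and Tfam, which packages and transcribes mitochondrial DNA, by 0.42. Esrra fell by 0.37 and Gabpa was higher by 0.17, whereas Nrf1 and Yy1 had log2 fold changes of 0.05 and 0.01 and did not pass the test. Of 19 glycolytic genes, 2 were higher and 6 lower, with a median of -0.14. Slc16a3, a lactate exporter, was higher by 1.24 and Hk2, a hexokinase, by 0.58, while Pfkl, a phosphofructokinase, fell by 0.72 and Ldha by 0.57. In Model_Swim vs Model no gene of these 5 lists was called, and the medians were 0.18 for the cycle, 0.12 for assembly factors, 0.17 for carriers, -0.04 for regulators and 0.16 for glycolysis. In Model_Swim vs Ctrl_Swim, 4 genes of the cycle, 6 assembly factors and 1 regulator were lower, and 1 gene of the carrier list and 2 glycolytic genes were higher.

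**Figure D5:**
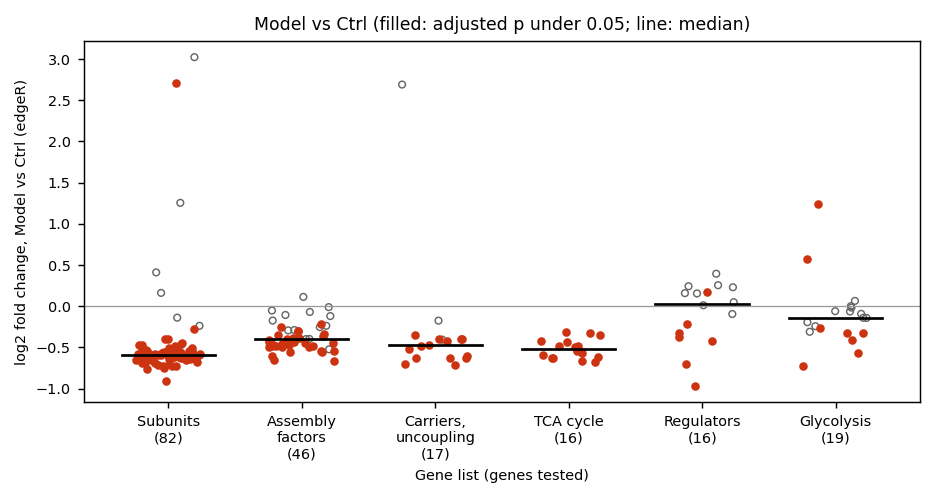
Log2 fold change in Model vs Ctrl (y axis, edgeR) of the 82 subunit genes and of the tested genes of 5 other lists (x axis, with the number of genes). Filled points have an adjusted p under 0.05, open points do not, and lines are medians. Medians lie at -0.59 for subunits, -0.40 for assembly factors, -0.47 for carriers, -0.52 for the tricarboxylic acid (TCA) cycle, 0.03 for regulators and -0.14 for glycolysis.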

How the data were processed

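RNA from mouse colorectal tissue was sequenced from stranded mRNA libraries (TruSeq Stranded mRNA). The authors trimmed reads (Trimmomatic), aligned them to GRCm38.p6 (HISAT2) and deposited raw counts per gene (HTSeq-count) and FPKM values (Cufflinks). Tool versions and the annotation release are not given in the sources used here. The labels and the methods name different RNA extraction reagents.

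The count analysis used edgeR 4.0.16 in R 4.3.3, with TMM scaling, filterByExpr (minimum count 10), 1 quasi-likelihood fit of all 4 groups, and Benjamini-Hochberg adjustment over all 15484 tested genes in each of 5 contrasts. A gene was called at an adjusted p under 0.05. Log2 CPM uses a prior count of 2. A count of 3 corresponds to at most 0.172 CPM, which covers counting error only. Alternatives were DESeq2 1.42.0, its size factors, library totals, no filter, only the groups compared, a replicate block, the study's fold cutoff of 2, limma 3.58.1 on log2(FPKM + 1) and log2(FPKM + 0.1), and leaving out libraries. A pair of others (a term for trace pancreatic RNA, summed CPM over 5, and leaving out libraries with squamous genes over 200 CPM) were added after seeing the data. Scripts were tested on simulated data.

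The subunits, marker lists and pathway lists were chosen with earlier results of these data known. Text names subunits by role (core and isoform subunits), the 6 largest called changes in each direction and 2 largest uncalled ones per comparison, the highest and lowest level per complex, and up to 3 called genes of each pathway list; Uqcr11 and a few regulators, cytochrome c and glycolytic genes are named beyond this, after their values were seen. Skeletal or cardiac muscle and adipocyte lists had no called gene in Model vs Ctrl (10 genes tested in each), smooth muscle 0 of 9, squamous epithelium 9 of 12 higher, and pancreatic acinar cells 15 of 15 higher. The values of 1 subunit and 1 gene of the tricarboxylic acid cycle are not reported here on their own. Each library is 1 mouse; 3 against 3 libraries cannot give an exact permutation p below 0.1, so that single values were not tested that way.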

Additional observations from a re-analysis of the deposited data

Results flagged for a closer look

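Complex III met the criterion of opposite directions of change with swimming in every library. Its median difference was -0.13 (log2, mean of Ctrl_Swim libraries minus Ctrl mean) without AOM/DSS and 0.24 (mean of Model_Swim libraries minus Model mean) with AOM/DSS. The directions were not particular to complex III, since over the 5 complexes the median log2 fold changes lay between -0.15 and -0.09 in Ctrl_Swim vs Ctrl and between 0.18 and 0.25 in Model_Swim vs Model. Ctrl_Swim 2 lay close to the Ctrl mean by the median (-0.02), and its summed level of complex III, 2270.4 CPM, was above the 2237 to 2266 CPM of the Ctrl libraries. For the subunits as a whole the sign of Ctrl_Swim vs Ctrl depended on the scaling. The difference was not tested for the complex as a whole, and among its single genes the interaction passed the edgeR test in none, with 8 of 8 at an unadjusted p under 0.05.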

How the results depend on the processing

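The 75 lower genes in Model vs Ctrl kept a negative sign under all 24 settings with a fit of their own, and 73 to 75 of them stayed called. The number called (76) was 74 to 77 when 1 library was left out and 1 under the study's fold cutoff, since no decrease exceeded it. For Model_Swim vs Model (0 called), DESeq2 gave 13, leaving out Model 1 and Model 3 gave 6, and leaving out 1 library 0 to 23. For Ctrl_Swim vs Ctrl (0 called), DESeq2 gave 4, fitting only the groups compared 1, leaving out Model 1 and Model 3 gave 4, and leaving out 1 library 0 in each case. For Model_Swim vs Ctrl_Swim (32 called), DESeq2 gave 61, library totals 63, the study's fold cutoff 0, limma on log2(FPKM + 1) and log2(FPKM + 0.1) 63 each and 57 without a filter, leaving out Model 1 and Model 3 gave 61, the term for trace pancreatic RNA 10, leaving out squamous-rich libraries 5, and leaving out 1 library 5 to 50. For the interaction (0 called), DESeq2 gave 22, leaving out Model 1 and Model 3 gave 23, and leaving out 1 library 0 to 22. The causes were not tested. Leaving out the squamous-rich libraries left Model 3 and Model_Swim 1 as the lone libraries of their groups. The term for trace pancreatic RNA was fitted from differences within Ctrl_Swim alone. Whether the replicate numbers pair the libraries could not be told. Of 15 same-numbered pairs, 4 had correlated deviations over 0.1 (range over all 15 -0.261 to 0.564). Pairs with different numbers were not examined for comparison. With the replicate block, Model_Swim vs Ctrl_Swim had 0 called subunits (40 genes called in all) and Model vs Ctrl 75 (4322 in all). Groups of 3 mice and isoforms with few reads limit what could be called.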
